A study of Mus musculus with 2 samples.

Results

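The 10 genes described here make up the core of MHC class I antigen presentation: the heavy chains H2-K1 and H2-D1, the light chain B2m, the peptide transporter subunits Tap1 and Tap2 with their partner Tapbp, the immunoproteasome subunits Psmb8, Psmb9 and Psmb10, and the transcriptional activator Nlrc5. They were taken by symbol, 10 of the 32285 genes listed in each of the 2 single-cell count tables. No cut on their values was used, but earlier results of these data were known when they were chosen. The tables come from whole mouse uterus, with 1 library of 3′ single-cell RNA per group. The control library is titled Prickle1 f/f and the conditional knockout library (cKO below) Prickle1 f/f Ltf-cre. Both are from C57BL/6J females aged 6 months, and each is a pool of 3 mice. Both groups therefore carry the floxed Prickle1 alleles, and the groups differ by a Cre recombinase driven from Ltf, the lactoferrin gene, which is transcribed in uterine epithelium. The genotype label calls both libraries wild-type, against their titles, which were used here. With 1 library per group no test between genotypes was possible. Intervals below are 95% intervals for the counting of UMIs (unique molecular identifiers, 1 per captured RNA molecule). They treat the UMIs of a class as independent and do not cover differences between cells, between mice or between library preparations.

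Cells were barcodes with at least 500 genes and at most 20% mitochondrial UMIs, 3653 in the control and 4950 in the cKO library, with a median of 4650 and 5944 UMIs; 5 cell barcodes occur in both. Each cell was placed in a class by a UMI of 1 gate gene and none of the others: Epcam for epithelial, Pdgfra for stromal, Actg2 for muscle, C1qa for macrophage, Flt3 for dendritic, and Cd3e or Ncr1 for lymphoid cells. In control and cKO, the classes held 961 and 135 epithelial, 623 and 1464 stromal, 289 and 535 muscle, 228 and 110 macrophage, 42 and 134 dendritic, and 155 and 427 lymphoid cells; 1185 and 1896 cells had no gate gene. The median UMIs per cell were 7930.5 and 8101.5 in macrophages, 11509.5 and 14023 in dendritic and 4203 and 4504 in lymphoid cells; those of the other classes are given with their results. Every marker of a class's own list was detected in that class in both libraries. The epithelial gate of the cKO library also held 3089 CPM (UMIs per 1000000 UMIs of the class total) of 6 stromal markers, against 253 CPM in the control, with Pdgfra at 0 in both because the gate excludes it. Leukocyte markers were also higher there in the cKO: the 6 macrophage markers summed to 3.00 and 14.7 CPM (5 and 4 detected, C1qa at 0), the 7 dendritic markers to 16.1 and 57.9 CPM (6 and 5, Flt3 at 0) and the 7 lymphoid markers to 2.48 and 18.2 CPM (5 and 4, Cd3e and Ncr1 at 0). The 3 mesothelial markers summed to 20.3 and 315 CPM and the 6 muscle markers to 32.1 and 454 CPM. The part of these cells in the epithelial values was not tested. For that reason epithelial values are given a second time for cells with a UMI of at least 3 of the 7 other epithelial markers, 929 control and 82 cKO cells. Prickle1 itself (ENSMUSG00000036158, chr15:93499114-93595891, minus strand) was counted at 15 UMIs (0.865 CPM) in control and 16 UMIs (3.93 CPM) in cKO epithelial cells. In stromal cells it stood at 3.84 and 9.13 CPM. The reads are 3′ tags and need not cover the deleted part, so these counts do not check the deletion, and cKO below means the library labelled so. Ltf, whose promoter drives the Cre, stood at 1535 CPM in control and 107 CPM in cKO epithelial cells at the time of collection.

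MHC class I molecules show peptides from inside the cell to CD8 T cells and natural killer cells. The proteasome cuts proteins into peptides, the TAP transporter carries them into the endoplasmic reticulum, and tapasin (Tapbp) helps load them onto a heavy chain paired with beta-2-microglobulin. Interferons raise the genes of the pathway, in part through IRF factors, and NLRC5, itself induced by interferon, acts at the SXY module of class I promoters, whose X2 box and Y box are bound by CREB and NF-Y proteins. Most nucleated cells of the uterus carry class I molecules, and leukocytes carry more of them than most other cells.

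In the GENCODE M21 annotation of GRCm38, 7 members lie on chromosome 17, in the mouse MHC: Tapbp (chr17:33915899-33929292, plus strand), H2-K1 (chr17:33996017-34000347, minus), Psmb9 (chr17:34181987-34187764, minus), Tap1 (chr17:34187553-34197225, plus), Psmb8 (chr17:34197721-34201454, plus), Tap2 (chr17:34203527-34216321, plus) and H2-D1 (chr17:35262730-35267499, plus). B2m lies at chr2:122147686-122153083 (plus), and Nlrc5 (chr8:94434356-94527272, plus) and Psmb10 (chr8:105935735-105938444, minus) share chromosome 8. The gene models of Psmb9 and Tap1 run in opposite directions and overlap by 212 bases, and their RefSeq starts are 226 bases apart. The proximal promoters of the chains, and the stretch that lies between the starts of Psmb9 and Tap1, are shown because NLRC5, IRF and NF-kappaB factors are known to act there. Of the 10 members, 8 are in the RefSeq promoter table (GRCm38.p6). Capitals mark matches, on either strand, to a kappaB site (GGGATTCCC), the core of an IRF site (AANNGAAA), the core of the X2 box (TGACG) and the Y box (CCAAT); no 2 of them overlap. The windows are the 250 bases before the start of H2-K1 (chr17:34000348-34000597, minus strand, the more upstream of 2 listed starts), H2-D1 (chr17:35262844-35263093, plus) and B2m (chr2:122147437-122147686, plus), and the 225 bases from Psmb9 to Tap1 (chr17:34187331-34187555, plus):
H2-K1: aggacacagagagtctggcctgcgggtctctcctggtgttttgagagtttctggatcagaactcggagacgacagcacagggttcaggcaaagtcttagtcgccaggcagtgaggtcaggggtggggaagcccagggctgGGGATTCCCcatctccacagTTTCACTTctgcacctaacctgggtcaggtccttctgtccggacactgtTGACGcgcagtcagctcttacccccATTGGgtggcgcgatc
H2-D1: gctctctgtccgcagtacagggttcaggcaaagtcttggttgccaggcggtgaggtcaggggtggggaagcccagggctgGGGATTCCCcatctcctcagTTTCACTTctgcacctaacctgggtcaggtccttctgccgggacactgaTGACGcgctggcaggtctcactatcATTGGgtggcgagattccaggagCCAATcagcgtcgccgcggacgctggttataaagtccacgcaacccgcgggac
B2m: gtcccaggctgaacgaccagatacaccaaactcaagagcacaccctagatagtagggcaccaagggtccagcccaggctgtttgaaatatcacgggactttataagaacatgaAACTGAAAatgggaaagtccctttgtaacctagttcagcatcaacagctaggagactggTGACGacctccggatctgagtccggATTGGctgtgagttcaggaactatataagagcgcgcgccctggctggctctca
Psmb9 to Tap1: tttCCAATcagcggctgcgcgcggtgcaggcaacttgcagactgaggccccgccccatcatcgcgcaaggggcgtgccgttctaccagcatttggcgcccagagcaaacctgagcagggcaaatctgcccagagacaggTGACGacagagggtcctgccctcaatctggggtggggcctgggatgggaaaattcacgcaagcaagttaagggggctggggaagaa
H2-K1 and H2-D1 hold the same 4 kinds of match in the same order and spacing: from start to start, 20 bases from the kappaB site to the IRF core, 49 from there to TGACG, and 25 on to the Y box. B2m has the same 25 bases between TGACG and the Y box, with an IRF core 59 bases before TGACG and no kappaB match of these letters. Among the 32851 promoters of the table, read over the same window and both strands, 0.301% hold the kappaB site, 21.3% the IRF core, 17.8% TGACG and 33.8% CCAAT. Within the 8 windows, TGACG is present in 5 members' windows (H2-K1, H2-D1, B2m, Psmb9 and Tap1) and CCAAT in those and in Tapbp; in Psmb9 and Tap1 they are the same letters of the shared stretch. These matches are a description of the sequence.

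Across the classes, the leukocytes held the highest levels of all 10 members. In the control library 7 members (Tap1, Tap2, Tapbp, Psmb8, Psmb9, Psmb10 and Nlrc5) were highest in dendritic cells and the 3 chains H2-K1, H2-D1 and B2m in lymphoid cells. In the cKO library 4 members (Tap1, Tap2, Psmb8 and Psmb9) were highest in dendritic cells, 3 (H2-K1, H2-D1 and Nlrc5) in lymphoid cells and 3 (B2m, Tapbp and Psmb10) in macrophages. Several neighbours in these orders did not differ beyond counting error. Among these were lymphoid and macrophage cells for H2-D1 and B2m in the control, dendritic and lymphoid cells for Nlrc5 in the control, and lymphoid, macrophage and dendritic cells for Nlrc5 in the cKO. In the cKO the same held for macrophages and lymphoid cells in Tap1, Tap2, Psmb8 and Psmb9, for dendritic and lymphoid cells in Tapbp and Psmb10, and for stromal and muscle cells in H2-K1 and H2-D1. The others lay among epithelial, stromal and muscle cells. The 10 genes together took 0.273% of epithelial, 0.193% of stromal, 0.105% of muscle, 0.943% of macrophage, 0.780% of dendritic and 1.15% of lymphoid UMIs in the control, and 0.256%, 0.149%, 0.143%, 1.10%, 0.614% and 1.01% in the cKO.

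**Figure D1:**
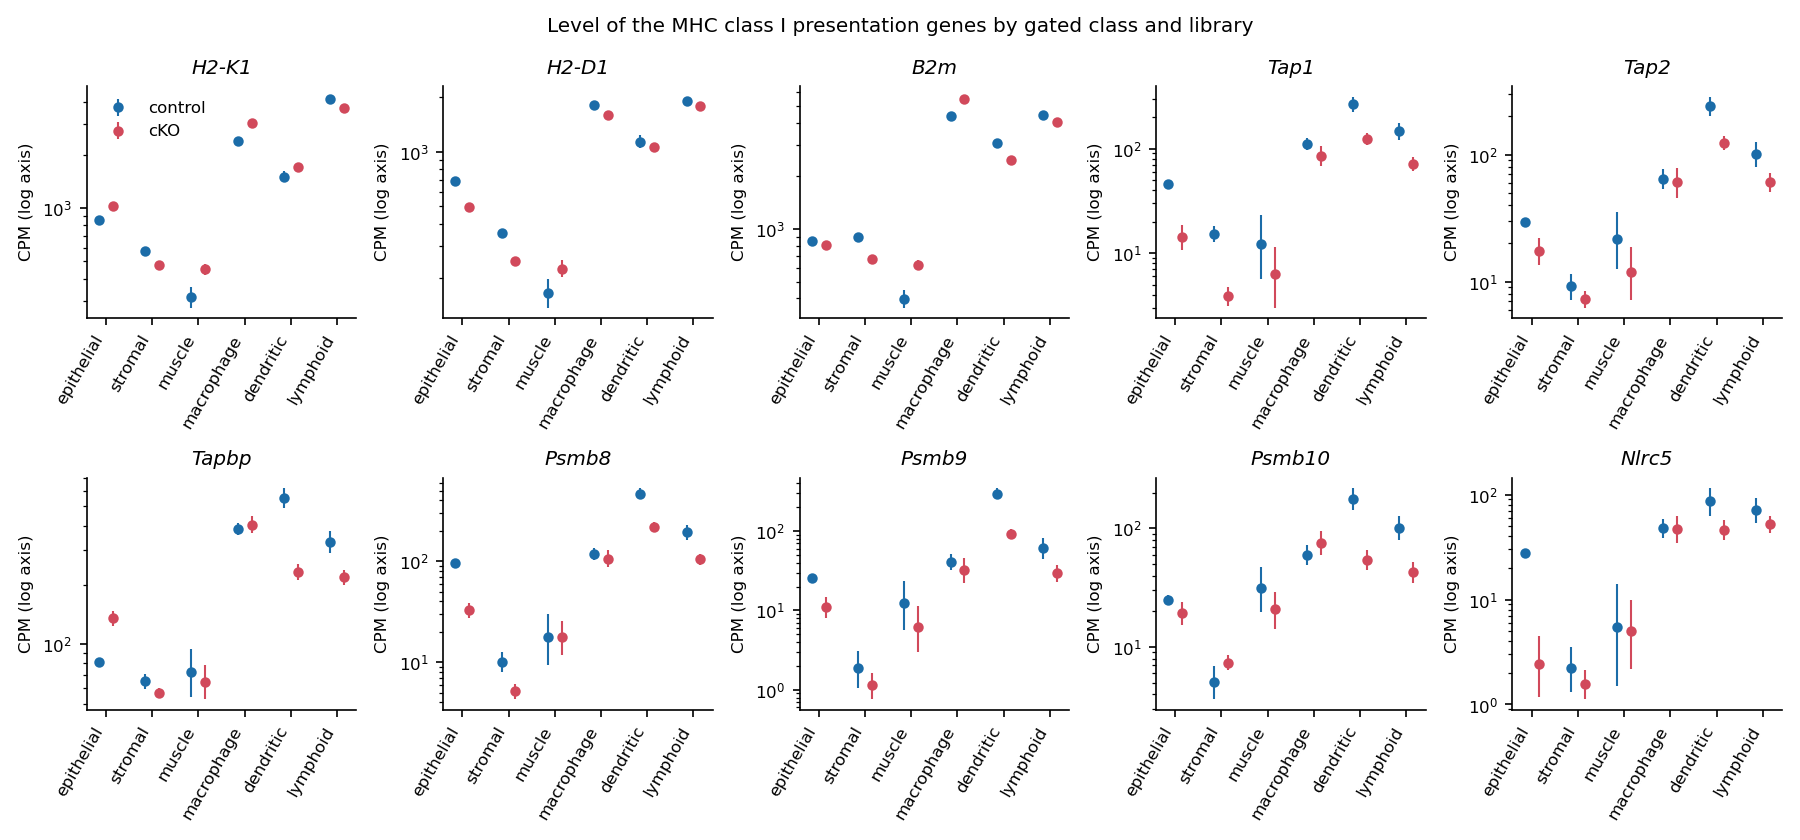
Level of each of the 10 genes, in CPM of the class sum on a log axis, for 6 gated classes in the control (blue) and cKO (red) library; bars are 95% Poisson intervals of the counts. Leukocyte classes sit above epithelial, stromal and muscle classes in most panels, and the widest gap between libraries is that of Nlrc5 in epithelial cells, 27.7 against 2.45 CPM.

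The 3 chains were short of a 2-fold difference between the libraries in epithelial cells when UMIs were summed over the class. H2-K1, a classical heavy chain, was counted at 14961 UMIs (863 CPM) in the control and 4179 (1026 CPM) in the cKO, a log2 ratio of 0.25 (interval 0.20 to 0.30). H2-D1, the other classical heavy chain, stood at 685 and 494 CPM (log2 ratio -0.47), and B2m, the light chain both need to reach the surface, at 847 and 811 CPM (-0.06). Other measures took some past it: B2m was higher in the cKO by the mean over cells (1.30) and in thinned cells (1.37), and H2-D1 was lower under TMM scaling (-1.06). The median gene of this class was 0.46 higher in the cKO on the log2 scale, and TMM scaling moves all values by 0.59, so relative to the median gene H2-K1 was at -0.21, B2m at -0.52 and H2-D1 at -0.93. The direction of H2-K1 thus turns under TMM and median-ratio scaling. In cells with at least 3 further epithelial markers H2-K1 stood at 858 and 819 CPM (log2 ratio -0.07), H2-D1 at 682 and 392 CPM (-0.80) and B2m at 837 and 458 CPM (-0.87). The 53 cKO cells of the gate with fewer epithelial markers held 2449 CPM of H2-K1 and 3241 CPM of B2m. The 2 heavy chain genes are closely related copies, and reads that fit both can be lost or misplaced by a counter, so the balance between them is uncertain. As counted, H2-K1 gave 55.7% (55.1 to 56.3%) of the UMIs of both in control and 67.5% (66.3 to 68.6%) in cKO epithelial cells, 57.2% and 65.5% in macrophages, 57.1% and 62.0% in dendritic cells, 61.6% and 65.8% in stromal cells, 65.3% and 66.6% in muscle cells and 68.5% and 67.4% in lymphoid cells. The share was higher in the cKO library in epithelial cells, macrophages, dendritic cells and stromal cells, with intervals that did not overlap between the libraries; those of muscle and lymphoid cells overlapped.

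Nlrc5 and 3 of the 6 genes that supply peptides (Tap1, Psmb8 and Psmb9) were past 2-fold lower in cKO epithelial cells, while Tap2, Psmb10 and Tapbp were short of it, Tapbp with the ratio on the other side. A gene is called past 2-fold here when its CPM ratio is at least 2 in either direction, its counting interval leaves out 1 and it has at least 20 UMIs over both libraries. By this rule 4 of the 10 members were lower in cKO epithelial cells (Tap1, Psmb8, Psmb9 and Nlrc5) and none was higher, against 8.52% of all tested genes lower. Nlrc5, the activator of class I transcription, had 481 UMIs in 270 of 961 control cells and 10 UMIs in 8 of 135 cKO cells, or 27.7 and 2.45 CPM, 11.3-fold lower (6.09 to 23.7). The share of cells with a Nlrc5 UMI was 28.1% in the control at a median of 6302 UMIs per cell and 5.93% in the cKO at a median of 14443. In the stromal class the share was 2.89% at 11763 and 2.39% at 15651 UMIs per cell. After thinning each cell to 1000 UMIs, 44 of 954 control cells (4.61%) and 1 of 135 cKO cells (0.741%) kept a UMI, leaving out 7 shallower control cells. Barcodes with at most 100 UMIs, taken as free RNA, held Nlrc5 at 22.1 CPM in the control and 8.31 CPM in the cKO library, so free RNA moved the same way. Its part in the epithelial difference was not tested. In the other classes Nlrc5 was not past 2-fold as scaled here: in macrophages it stood at 47.7 and 47.0 CPM, in stromal cells at 2.23 and 1.57 CPM, in lymphoid cells at 71.4 and 52.1 CPM, in dendritic cells at 86.0 and 46.3 CPM, and in muscle cells at 4 and 8 UMIs, too few to be called. In dendritic cells it was past 2-fold lower under TMM (log2 ratio -1.09) and median-ratio scaling (-1.15).

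Tap1, which with Tap2 forms the peptide transporter, was counted at 797 UMIs (46.0 CPM) in control and 58 UMIs (14.2 CPM) in cKO epithelial cells, 3.23-fold lower (2.47 to 4.29). Without the deepest 2% of cells its log2 ratio was -0.89, no longer past 2-fold. Tap2 stood at 29.3 and 17.4 CPM (log2 ratio -0.75), short of 2-fold, but past it under TMM (-1.34) and median-ratio scaling (-1.16). In cells thinned to 1000 UMIs the direction of Tap2 turned (0.32). In another random draw 37 of 954 control (3.88%) and 4 of 135 cKO cells (2.96%) kept a Tap2 UMI. Tapbp, which bridges the transporter and the heavy chain, was higher in the cKO, with 81.2 CPM in the control and 135 CPM in the cKO (log2 ratio 0.74, interval 0.59 to 0.88), short of 2-fold. Without the deepest 2% of cells Tapbp was past 2-fold higher (1.21). Relative to the median gene of the class Tap1 was at -2.15, Tap2 at -1.21 and Tapbp at 0.28. Psmb8, the immunoproteasome subunit that replaces Psmb5, had 1652 and 133 UMIs (95.3 and 32.6 CPM), 2.92-fold lower (2.44 to 3.51). In thinned cells, with 75 and 4 UMIs left, its log2 ratio was -1.41 and no longer called. Psmb9, which replaces Psmb6, had 450 and 45 UMIs (25.9 and 11.0 CPM), 2.35-fold lower (1.73 to 3.27). Psmb10, which replaces Psmb7, stood at 25.0 and 19.4 CPM (-0.37). The direction of Psmb9 depends on the measure: the mean over cells gave a log2 ratio of 0.13, and thinned cells, with 20 and 8 UMIs left, gave 1.50. Thinning is a random draw, and in another draw 19 of 954 control (1.99%) and 3 of 135 cKO cells (2.22%) kept a Psmb9 UMI, so these few UMIs give no direction. Free RNA held Tap1 at 36.9 and 24.9 CPM, Psmb8 at 55.9 and 38.9 CPM and Psmb9 at 23.7 and 10.9 CPM in control and cKO, lower in the cKO as well; for Psmb9 these are close to the class levels. Its part was not tested.

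With the epithelial gate narrowed to cells with at least 3 further markers, 5 of the 10 members were past 2-fold, all lower, against 9.12% of tested genes lower; Tap2 joined the 4 above. Tap1 was then at 785 UMIs (45.8 CPM) in the control and 29 UMIs (8.15 CPM) in the cKO, 5.61-fold lower (3.88 to 8.44), and Nlrc5 at 474 UMIs (27.6 CPM) and 4 UMIs (1.12 CPM). Psmb8 stood at 94.3 and 28.4 CPM and Psmb9 at 25.5 and 6.75 CPM. Tapbp stayed on the other side, at 79.6 and 133 CPM (log2 ratio 0.74). By summed UMIs, the differences of Tap1, Psmb8, Psmb9 and Nlrc5 were thus larger where cells with fewer epithelial markers were set aside. The narrowed gate also held deeper cKO cells. Its median UMIs per cell were 6362 in control and 24014.5 in cKO, against 6302 and 14443 in the whole gate. The part of depth was not tested. In the narrowed gate Psmb9 was not called by the mean over cells, and neither Psmb8 nor Psmb9 was called after thinning, where Psmb9 was at 0.79 with 13 and 2 UMIs. The median log2 ratio of the 10 members was -0.61 over the whole gate and -1.04 over the narrowed one, beside 0.46 and 0.40 for all genes.

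In stromal cells 1 member was past 2-fold, Tap1, lower in the cKO, against 6.29% of tested genes lower. Tap1 had 123 UMIs (15.2 CPM) in 623 control cells and 98 UMIs (3.86 CPM) in 1464 cKO cells, 3.95-fold lower (3.00 to 5.20). Thinned to 1000 UMIs, the stromal cells kept 6 and 8 UMIs of Tap1, too few to be called (log2 ratio -0.83); in another draw 7 of 613 control (1.14%) and 5 of 1453 cKO cells (0.344%) kept one. The 6 macrophage markers summed to 15.2 and 4.41 CPM in this class (5 of 6 detected in each, C1qa at 0) and the 8 epithelial markers to 39.8 and 12.6 CPM (7 of 8, Epcam at 0), so both were lower in the cKO as well, and their part was not tested. Psmb8 stood at 10.2 and 5.16 CPM (log2 ratio -0.98), just short of 2-fold. By the mean over cells, in cells of at least 5000 UMIs and with cell-free RNA subtracted (-1.85), Psmb8 was past 2-fold lower. Without cells with an Ifit3 UMI, a split described below, its direction turned (0.40). The chains were lower by less: H2-K1 at 570 and 480 CPM (-0.25), H2-D1 at 355 and 249 CPM (-0.51) and B2m at 894 and 676 CPM (-0.40). Psmb10 leaned to the cKO, 5.08 and 7.40 CPM (0.54). The member median was -0.45, beside -0.02 for all genes. In muscle cells, at a median of 1504 and 1570 UMIs per cell, 7 of the 10 members had enough UMIs to be read and none was past 2-fold, against 3.01% of tested genes lower and 6.21% higher. The chains stood higher in the cKO there, H2-K1 at 313 and 451 CPM (0.53), H2-D1 at 166 and 227 CPM (0.45) and B2m at 399 and 622 CPM (0.64). Where gates may share cells, the sign of all 3 turned (H2-K1 -0.22, H2-D1 -0.60 and B2m -0.03), so their direction depends on the gate. Tap1, Psmb9 and Nlrc5 had between 4 and 10 UMIs per library. Red cell markers, Hbb-bs, Hba-a1 and Hba-a2, summed to 76.3 CPM in control and 1515 CPM in cKO muscle cells, all 3 detected in both. The 8 epithelial markers summed to 276.7 and 27.6 CPM (7 of 8 in each, Epcam at 0). Macrophage (9.54 and 24.5 CPM), dendritic (114 and 160 CPM), lymphoid (5.45 and 26.4 CPM) and lymphatic endothelial markers (15.0 and 233 CPM) were higher in the cKO. Blood endothelial (147 and 56.5 CPM) and B cell markers (21.8 and 2.51 CPM) went the other way. The part of any of these in the muscle values was not tested.

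Macrophages, which take up and present material from dying cells, had none of the 10 members past 2-fold, against 3.70% of tested genes lower and 9.19% higher. H2-K1 stood at 2405 and 3041 CPM (log2 ratio 0.34), B2m at 4403 and 5539 CPM (0.33), H2-D1 at 1796 and 1598 CPM (-0.17) and Tap1 at 110 and 84.9 CPM (-0.38). The interval of Tap1 ran from 1.00-fold to 1.70-fold lower. The median gene of the class was 0.18 higher in the cKO and TMM scaling moves all values by 0.24. Relative to the median gene H2-K1 was at 0.16, B2m at 0.15 and Tap1 at -0.56. Psmb8, at 117 and 106 CPM, and Nlrc5, at 47.7 and 47.0 CPM, were close in both libraries, with intervals on the log2 scale of -0.49 to 0.20 and -0.57 to 0.51. In this class the 3 red cell markers summed to 10.6 and 751 CPM, the 3 mast markers to 6.36 and 213 CPM (all detected in both) and the 6 stromal markers to 187 and 343 CPM (5 of 6 in each, Pdgfra at 0), and their part was not tested.

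Dendritic cells, the class with the highest peptide-supply genes in the control, had 5 of 10 members past 2-fold, all lower in the cKO (Tap1, Tapbp, Psmb8, Psmb9 and Psmb10), against 4.74% of tested genes lower. Psmb10 was counted at 91 UMIs (178 CPM) in 42 control cells and 106 UMIs (54.5 CPM) in 134 cKO cells, 3.26-fold lower (2.44 to 4.36), and Psmb9 at 152 (297 CPM) and 181 UMIs (93.1 CPM), 3.19-fold lower (2.56 to 3.98). Tapbp stood at 551 and 232 CPM, 2.38-fold lower (2.04 to 2.76), Tap1 at 266 and 124 CPM, 2.14-fold lower (1.72 to 2.66), and Psmb8 at 467 and 220 CPM, 2.12-fold lower (1.80 to 2.49). Several of these calls end under another measure. Where gates may share cells, Tap1 (-0.99), Psmb8 (-0.84) and Tapbp (-0.80) were short of 2-fold, and by the mean over cells Tap1 (-0.93) and Psmb8 (-0.96) were. Psmb8 was also just short without the cell that held most of its UMIs, and thinning ended the call of Tap1 (-0.89). Psmb10 in thinned cells, at -2.67 with 10 and 5 UMIs, fell under the minimum of 20 UMIs. Tapbp, past 2-fold lower here, was short of 2-fold in epithelial cells; with 1 library per group that contrast was not tested. Tap2 (240 and 123 CPM) and Nlrc5 (86.0 and 46.3 CPM) stopped short of 2-fold. The chains were short of 2-fold, H2-K1 at 1507 and 1722 CPM (0.19), a direction that TMM scaling (shift 0.20) takes to just below 0, H2-D1 at 1132 and 1057 CPM (-0.10) and B2m at 3081 and 2469 CPM (-0.32). The median gene of the class was 0.29 higher in the cKO, and relative to it the 5 members past 2-fold lay between -2.00 and -1.38. Markers of other cells were not equal in the 2 libraries: the 7 lymphoid markers were all at 0 in the control and summed to 34.5 CPM in the cKO (5 of 7 detected, Cd3e and Ncr1 at 0), and the 3 red cell markers summed to 7.82 and 596 CPM (2 and 3 detected, Hba-a1 at 0 in the control). The 6 stromal markers summed to 95.8 and 274 CPM (5 of 6 in each, Pdgfra at 0) and the 3 lymphatic endothelial markers to 0 and 102 CPM, while the 6 macrophage markers went the other way, 66.5 and 5.66 CPM (3 and 4 detected, C1qa and C1qc at 0), as did the 8 epithelial markers, 109.5 and 44.8 CPM (7 and 6 detected, Epcam at 0). The part of such cells in the difference was not tested. Only 42 control cells stand behind the dendritic values.

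Lymphoid cells had all 10 members lower in the cKO by the sign of the ratio, and 3 past 2-fold (Tap1, Psmb9 and Psmb10), against 2.73% of tested genes lower. Tap1 had 109 UMIs (147 CPM) in 155 control cells and 165 UMIs (71.1 CPM) in 427 cKO cells, 2.06-fold lower (1.61 to 2.64). Psmb10 stood at 101 and 42.7 CPM, 2.37-fold lower (1.73 to 3.23), and Psmb9 at 60.6 and 29.7 CPM, 2.04-fold lower (1.37 to 3.01). Of the 3, Psmb10 alone stayed past 2-fold by the mean over cells and after thinning; Tap1 was then at -0.87 and -0.75, and Psmb9 at -0.95 and, with 8 and 7 UMIs left, at -1.66. Psmb8 (193 and 104 CPM), Tap2 (101 and 60.8 CPM) and Tapbp (331 and 219 CPM) were lower by less than 2-fold. H2-K1, at 4141 and 3681 CPM, H2-D1, at 1908 and 1783 CPM, and B2m, at 4456 and 4081 CPM, were within 0.17 of equal on the log2 scale. The median gene of the class was 0.15 higher in the cKO; relative to it Tap1 was at -1.20, Psmb10 at -1.39 and H2-K1 at -0.32. In cells with Cd3e and without Ncr1 (136 control and 390 cKO cells), T cells by their receptor chain, Psmb10 stood at 88.6 and 39.2 CPM, Tap1 at 131 and 67.9 CPM and H2-K1 at 4261 and 3641 CPM. In cells with Ncr1 and without Cd3e (19 and 36 cells), natural killer or innate lymphoid cells by that receptor, Tap1 stood at 205 and 93.7 CPM, Psmb8 at 269 and 134 CPM and Psmb10 at 148 and 66.9 CPM, while H2-K1 (3688 and 3985 CPM) and B2m (4599 and 5046 CPM) stood higher in the cKO. Markers of other cells were not equal in the lymphoid class of the 2 libraries: the 6 stromal markers summed to 49.8 and 264 CPM (5 of 6 detected in each, Pdgfra at 0) and the 7 dendritic markers to 76.8 and 226.7 CPM. Their part in the differences was not tested.

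**Figure D2:**
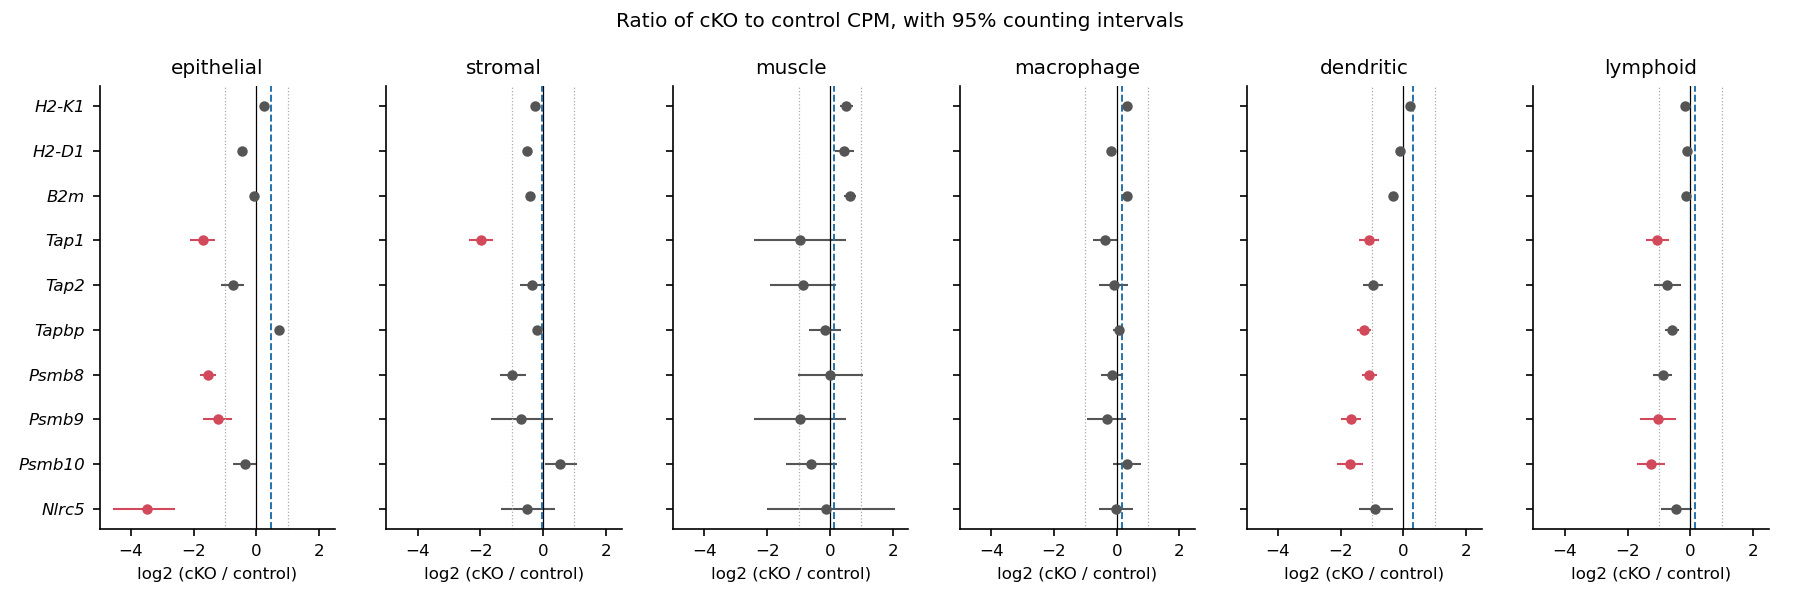
Log2 ratio of cKO to control CPM for each of the 10 genes in 6 classes, with 95% counting intervals; the dashed blue line is the median of all genes in the class, the dotted lines mark 2-fold, and red points are past 2-fold. Red points number 4 in epithelial, 1 in stromal, 5 in dendritic and 3 in lymphoid cells, all to the left, and none in muscle cells or macrophages.

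The exchange of proteasome subunits can be read against the constitutive partners. In epithelial cells Psmb5, Psmb6 and Psmb7 were slightly higher in the cKO (184 and 230 CPM, 114 and 140 CPM, 72.2 and 107 CPM), below the class's all-gene shift for the first 2, and none of the 3 was past 2-fold in any class. Psmb8 gave 34.1% of the UMIs of Psmb8 and Psmb5 in control and 12.4% in cKO epithelial cells, Psmb9 gave 18.6% and 7.32% of its pair, and Psmb10 25.7% and 15.3%. In dendritic cells the shares were 79.1% and 67.9% for Psmb8, 72.0% and 39.5% for Psmb9 and 72.8% and 34.3% for Psmb10. In lymphoid cells they were 62.2% and 57.1%, 36.9% and 26.0%, and 55.1% and 35.9%. Stromal cells used little of the immunoproteasome in either library, 8.05% and 4.52% for Psmb8 and 1.52% and 0.912% for Psmb9, while the share of Psmb10 was 4.55% and 6.74%. In macrophages the shares of Psmb8 (54.8% and 58.4%) and Psmb10 (46.9% and 54.0%) leaned to the cKO and that of Psmb9 (19.2% and 16.6%) to the control, all with overlapping intervals. A share compares within a library, so it does not depend on scaling to the class total; it is a share of RNA molecules, not of protein.

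**Figure D3:**
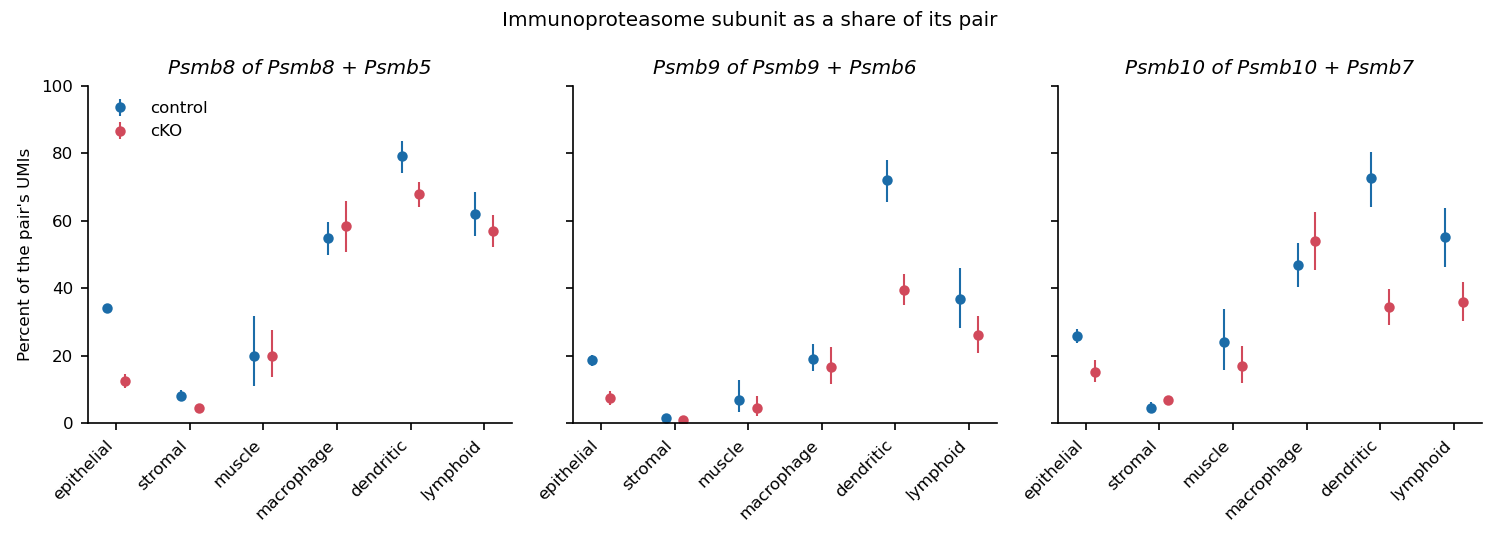
Immunoproteasome subunit as a percent of the UMIs of its pair, in 6 classes of the control (blue) and cKO (red) library; bars are exact 95% binomial intervals. The red points lie clearly below the blue ones for all 3 pairs in epithelial and dendritic cells, and overlap them in macrophages and muscle cells.

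The surrounding pathway was read from lists of related genes. In epithelial cells 4 of 8 tested other heavy chains were lower past 2-fold (H2-Q4, H2-Q10, H2-T22 and H2-T23) and none higher, where 8.52% of all tested genes were lower; H2-Q4, a class Ib chain of a family with near-identical copies, stood at 216 and 21.8 CPM. Among the IRF factors Irf1, Irf2 and Irf9 were lower past 2-fold; Irf1, an interferon-induced activator of class I and immunoproteasome genes, stood at 80.3 and 40.0 CPM. Of the 6 folding and trimming genes 1 was lower (Hspa5), and of the 3 proteasome activator genes 1 was higher (Psme3), against 29.0% of all tested genes higher. In stromal cells, where 6.29% of all tested genes were lower, none of 8 other heavy chains was past 2-fold and Irf9 was lower. In dendritic cells 2 of 6 heavy chains were lower (H2-T22 and H2-T23), Irf2 was lower and Nfyc higher, where 4.74% of all tested genes were lower and 11.3% higher. In lymphoid cells Psme2 was lower, as were 2.73% of all tested genes. Macrophages had none of 6 heavy chains past 2-fold. Of their 6 folding and trimming genes Tapbpl, a relative of tapasin, was higher (39 and 44 UMIs, 2.18-fold by CPM), as were 9.19% of all tested genes. In muscle cells 2 of 5 heavy chains were past 2-fold, H2-Q7 higher (27.3 and 58.4 CPM) and H2-Q4 lower (38.2 and 15.7 CPM), and Irf9 was lower. Of all tested genes there, 6.21% were higher and 3.01% lower. Of the 5 class II genes, the other MHC pathway, 2 were lower in epithelial cells, 4 of 4 tested were lower in stromal cells, and 4 of 4 tested were higher in muscle and in lymphoid cells, where 6.21% and 6.49% of all tested genes were higher. In lymphoid cells, H2-Aa had 3 UMIs in 3 of 155 control cells and 376 UMIs in 16 of 427 cKO cells, 81.6% of them in 5 cells, and H2-Eb1 had 1 and 242 UMIs; the 7 dendritic markers summed to 76.8 CPM (4 of 7 detected) and 226.7 CPM (5 of 7) there, with Flt3 and Clec9a at 0 in both libraries.

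The interferon-induced Ifit1 and Isg15 were past 2-fold lower in the cKO library in all 6 classes. Ifit1, an interferon-induced RNA-binding protein, stood at 362 and 11.3 CPM in epithelial, 119 and 1.38 CPM in stromal, 62.7 and 5.02 CPM in muscle, 1401 and 357 CPM in macrophage, 1175 and 17.0 CPM in dendritic and 303 and 7.33 CPM in lymphoid cells. Ifit3, of the same family, had 2998 UMIs in control and 2 in cKO epithelial cells, a ratio of 352 with an interval of 97.4 to 2910. Ifnb1, which encodes interferon beta, had 889 UMIs (51.3 CPM) in 79 of the 961 control epithelial cells and none in the 135 cKO cells, at least 69.6-fold lower when 3 counts are set as the floor for the cKO sum. Of the interferon gamma receptor genes, Ifngr1 was past 2-fold higher in cKO muscle cells (42.2 and 168 CPM) and Ifngr2 in cKO macrophages (95.5 and 200.4 CPM). Of all tested genes, 6.21% in muscle cells and 9.19% in macrophages were higher. Macrophages held 3 and 8 UMIs of Ifnb1, and the other 4 classes none. Over the 12 class and library sums, genes whose log2 level ran most like the mean of the members, among 11509 genes, included Sp110 (Pearson r 0.98), 2310001H17Rik (0.98), Sp100 (0.97) and Trim30a (0.97); the 12 sums share their 2 libraries and differ in depth.

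The members were then read in cells with and without a UMI of Ifit3, a split chosen after the values had been seen. Cells of 1 library are not replicates of each other, and depth can differ between the 2 sides: control epithelial cells with an Ifit3 UMI had a median of 11291 UMIs and those without 5286. In control epithelial cells, 263 of 961 had an Ifit3 UMI, and 4 members (Tap1, Tap2, Psmb8 and Psmb9) were past 2-fold higher in them, against 1.92% of tested genes higher. Tap1 stood at 67.4 CPM with and 30.8 CPM without an Ifit3 UMI, Psmb8 at 141 and 62.6 CPM, and Nlrc5 at 36.9 and 21.3 CPM (log2 ratio 0.79). The chains moved least, with log2 ratios of 0.13 for H2-K1, 0.25 for H2-D1 and 0.34 for B2m. The contrast was wider in stromal cells, where 39 of 623 control cells had an Ifit3 UMI and 5 members were past 2-fold higher, against 4.90% of tested genes: Tap1 stood at 92.0 and 8.73 CPM and Psmb8 at 84.0 and 3.90 CPM.

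In macrophages the same split could be made in both libraries, with a median of 7466.5 UMIs in control cells with an Ifit3 UMI and 8283 in those without, and 10666 and 7987 in the cKO. In 62 of 228 control cells with an Ifit3 UMI, 7 members were past 2-fold higher (all but the 3 chains), against 7.65% of tested genes higher, with Tap1 at 315 and 34.2 CPM and Nlrc5 at 115 and 22.6 CPM. In 13 of 110 cKO cells the same 7 were, against 6.00%, with Tap1 at 320 and 45.4 CPM and Nlrc5 at 149 and 29.9 CPM. In dendritic control cells (15 of 42) these 7 members were also past 2-fold higher, against 11.3%, and in lymphoid control cells (12 of 155) 4 were (Tap1, Tapbp, Psmb8 and Psmb10), against 4.81%. The cKO library held only 2 such epithelial, 10 stromal, 1 muscle, 2 dendritic and 2 lymphoid cells.

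The libraries were also compared without the cells that had an Ifit3 UMI, 263 of 961 control and 2 of 135 cKO epithelial cells. Ifit3 itself differed between the libraries, so this takes out mainly control cells, which held more of several members, and brings the control values down by construction. Nothing about the source of a difference is read from it. In epithelial cells Tap1 (30.8 and 14.4 CPM, 2.14-fold lower, 1.61 to 2.90) and Nlrc5 (21.3 and 2.52 CPM, 8.44-fold lower, 4.50 to 17.8) remained past 2-fold, against 8.76% of tested genes lower. Psmb8, at 62.6 and 33.3 CPM, and Psmb9, at 15.2 and 11.3 CPM, were no longer past it, and Tapbp, at 66.7 and 136 CPM, was past 2-fold higher, against 26.2% higher. In stromal cells Tap1 (8.73 and 3.85 CPM) remained, against 5.76% lower, and Psmb10 (2.96 and 7.39 CPM) was higher, against 5.09%. Psmb8 stood at 3.90 and 5.12 CPM there, short of 2-fold. In dendritic cells 1 member remained, Psmb10 (112 and 53.7 CPM), against 2.69% lower, and in lymphoid cells none of the 10, against 2.34%, with Tap1 at 133 and 70.5 CPM, 1.89-fold lower (1.45 to 2.46), Psmb9 at 59.5 and 29.8 CPM, 1.99-fold lower, and Psmb10 at 84.1 and 42.8 CPM, 1.97-fold lower, all just under 2-fold. Macrophages again had none, against 3.73% lower and 9.93% higher. The median over the 10 members moved from -0.61 to -0.26 in epithelial, from -0.45 to 0.04 in stromal, from -1.03 to -0.34 in dendritic and from -0.67 to -0.51 in lymphoid cells. Without the 79 Ifnb1-positive cells, Nlrc5 stood at 26.5 and 2.45 CPM and Tap1 at 40.3 and 14.2 CPM in epithelial cells.

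**Figure D4:**
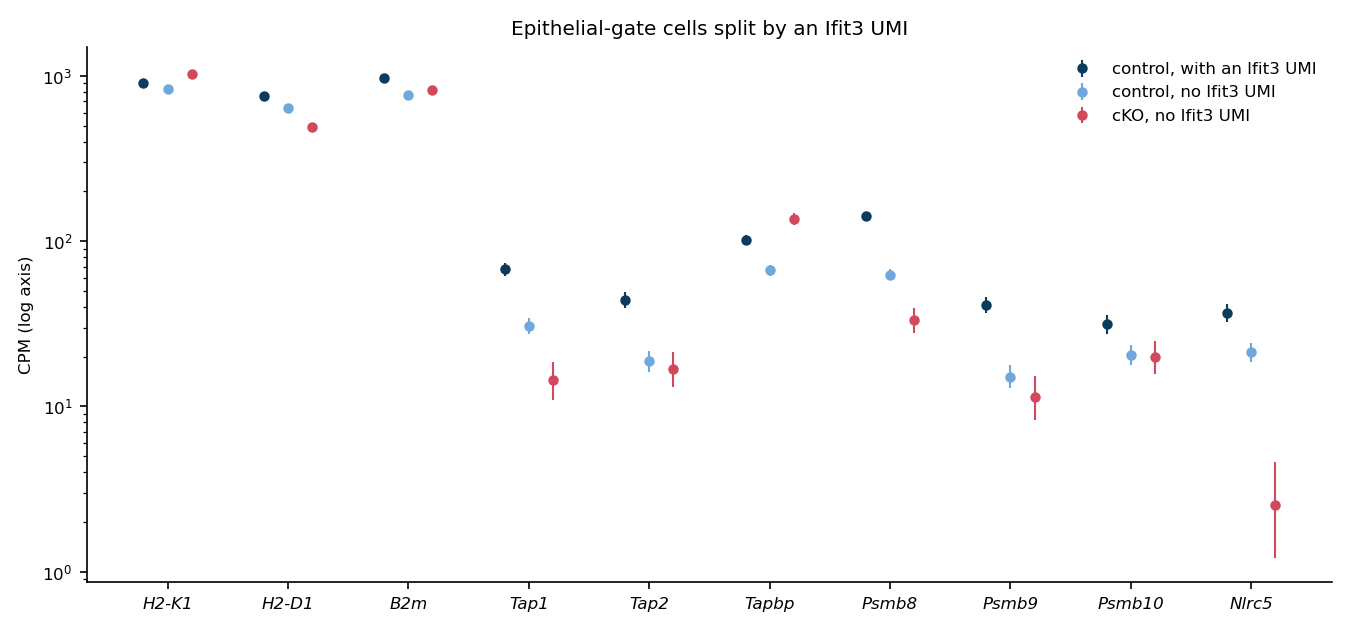
Level of each of the 10 genes in epithelial-gate cells, in CPM on a log axis, for control cells with an Ifit3 UMI (dark blue), control cells without one (light blue) and cKO cells without one (red); bars are 95% Poisson intervals. Tap1 steps down from 67.4 to 30.8 and 14.4 CPM, while Nlrc5 drops mainly between the control and cKO cells without Ifit3, from 21.3 to 2.52 CPM.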

How the data were processed

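The deposited files hold raw UMI counts per gene and barcode for 2 libraries of whole uterus, unfiltered (1214689 and 1359477 listed barcodes, 45035801 and 57145553 UMIs). The file headers name Cell Ranger 4 and the submitters' processing notes Cell Ranger 6.1.1 and mm10; the annotation and settings are not given in the sources used here. Of 32285 gene identifiers 32158 are in GENCODE M21 (GRCm38).

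Counts were summed per class and library and divided by the class total to give CPM, with exact Poisson intervals, exact conditional binomial intervals for ratios and exact Clopper-Pearson intervals for shares (Python 3.11.15, numpy 2.4.6, scipy 1.17.1, pandas 2.3.3, matplotlib 3.10.9). PCR copies are merged by UMI, and the intervals cover counting error only. The median UMIs per cell of each class are in the report; a gene with fewer than 20 UMIs was not called. Cells with gate genes of several classes (170 and 249) were left out as possible doublets, and no doublet caller was run. Free RNA was read from 730412 and 812108 barcodes with at most 100 UMIs. The call was checked on simulated data with counting error alone, which cannot speak to spread between cells, mice or libraries.

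The members, the wider lists and the classes were chosen with earlier results of these data known. All 10 members are described. From 7 lists of 51 genes (50 in the files), up to 3 genes per class were named, those with at least 50 UMIs whose ratio interval lay farthest from 1, and in addition the constitutive subunits, Ifnb1 and Irf1; other genes of the lists that were past 2-fold are named where few, chosen after their values were seen. Genes most like the members were the 5 with the highest r among genes with at least 200 UMIs. Some results of these lists are not reported here. Alternatives varied the cell filters, the gates, the depth, the level and the scaling (TMM from edgeR 4.0.16 in R 4.3.3, and median ratios). The splits by Ifit3 and by further epithelial markers were added after the values had been seen. Promoter sequences are from RefSeq.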

Additional observations from a re-analysis of the deposited data

How the results depend on the processing

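Of 930 values of the members under alternatives, 742 stayed within the counting interval of the main value, 185 moved beyond it, and 3 changed the sign of a value past 2-fold. The 3 are all Psmb9 in epithelial cells, with log2 ratios of 0.13 for the mean over cells, 1.50 for cells thinned to 1000 UMIs, and 0.79 for thinned cells with at least 3 further markers (13 and 2 UMIs); the cause was not tested. Nlrc5 in epithelial cells stayed past 2-fold in 18 of 18 alternatives, from -4.94 to -2.04, and Tap1 stayed lower, from -2.92 to -0.89, the last without the deepest 2% of cells and no longer past 2-fold. Among epithelial values short of 2-fold in the main setting, H2-K1 kept its sign in 14 of 19 alternatives (-0.34 to 0.85), B2m in 15 of 19 (-0.87 to 1.37), H2-D1 in 17 of 19 (-1.06 to 0.38) and Tapbp in 19 of 19 (0.14 to 1.21). Tapbp was past 2-fold higher without the deepest 2% of cells, without Ifit3 cells and in thinned cells of the narrowed gate. Psmb8 stayed lower but was not called after thinning, in the whole or the narrowed gate. The count of members past 2-fold in epithelial cells ran from 3 to 6, the highest under TMM.

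In stromal cells the count was 2 where gates may share cells, 2 for the mean over cells, 0 after thinning, 2 in cells of at least 5000 UMIs, 3 with cell-free RNA subtracted and 2 without Ifit3 cells. In muscle cells it was 2 where gates may share cells, 2 with a gate of 2 UMIs, 1 for the mean over cells and 1 without the deepest 2% of cells. In dendritic cells it was 2, 3, 3 and 1 where gates may share cells, for the mean over cells, after thinning and without Ifit3 cells, 7 under TMM and under median-ratio scaling, where Tap2 and Nlrc5 also passed, and 4 without the cell with most UMIs, where Psmb8 did not. In lymphoid cells it was 1 for the mean over cells, 1 after thinning and 0 without Ifit3 cells, 4 in cells of at least 5000 UMIs and under median-ratio scaling, where Psmb8 also passed, and 2 with a gate of 2 UMIs and without the deepest 2% of cells, where Psmb9 did not. The counts in this section take both directions together. Beyond the sets without Ifit3 cells and the summed narrowed gate, the share of all genes past 2-fold was not taken under these alternatives. There the counts describe the members alone and cannot be set against a background. No paired analysis was possible because each group has 1 library.

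Class identity rests on single gate genes, depth per cell differs between the libraries in epithelial cells, and thinning leaves few UMIs of the low members.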

Other observations

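Cells with none of the gate genes, 1185 in the control and 1896 in the cKO library (median 2642 and 4100.5 UMIs), were in no comparison above. H2-K1 stood at 1462 CPM in the control and 2388 CPM in the cKO (log2 ratio 0.71), H2-D1 at 906 and 1146 CPM (0.34) and B2m at 1885 and 2934 CPM (0.64). Tap1 stood at 93.1 and 41.4 CPM (-1.17), Psmb9 at 47.8 and 20.7 CPM (-1.20), Psmb8 at 104 and 57.5 CPM (-0.85) and Nlrc5 at 43.6 and 15.2 CPM (-1.52). Tap2 stood at 56.3 and 39.7 CPM (-0.50), Tapbp at 183 and 151 CPM (-0.28) and Psmb10 at 37.4 and 36.9 CPM (-0.02, interval -0.28 to 0.24). These cells are a mixture of types whose makeup may differ between the libraries, which was not tested.

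The share of a cell's UMIs that the 10 genes took together reached higher values among cKO than among control epithelial cells (954 and 135 cells of at least 1000 UMIs, control and cKO). The 90th percentile over cells was 0.492% in the control and 1.25% in the cKO, with medians of 0.249% and 0.237%. In the 53 cKO cells of the gate with fewer epithelial markers, H2-K1 stood at 2449 CPM and B2m at 3241 CPM, against 819 and 458 CPM in the 82 cells with more of them.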
